A study of Homo sapiens with 6 samples.

Results

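Peaks of the chromatin protein DEK were examined at 9 genes of abundant noncoding RNAs in U937 cells, an established human myeloid line, out of 64449 genes placed on the same build. RNA polymerase III (Pol III) transcribes 7 of them, RN7SK, RN7SL1, RN7SL2, RMRP, RPPH1, RNY1 and RNY3, and RNA polymerase II (Pol II) transcribes the other 2, NEAT1 and MALAT1. The genes were listed by name, and a peak was counted for a gene when it overlapped the gene extended by 5 kb on each side (the window). GENCODE release 44 on GRCh37 held 7 of the 9 by name. RN7SL1 and RPPH1 were placed by sequence, RN7SL1 by its match to RN7SL2 (98.65% identity over 297 bp) and RPPH1 by a weaker match to its annotated copy RPPH1-3P (77.82% over 293 bp), so the ends of RPPH1 are approximate.

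All samples were untreated U937 chromatin that had been fixed with 1% formaldehyde for 15 min and sheared by sonication. The labels give 2 precipitations with a DEK antibody, 2 with an antibody against H3K4me3 (trimethylated lysine 4 of histone H3, a mark of active promoters) and 2 samples without antibody, for which no peaks were analysed here. The study's methods call the 2 DEK precipitations independent experiments, neither they nor the labels say whether these were separate cultures, and with 2 per antibody no spread could be estimated for a peak.

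The DEK lists differed in length, with 15017 peaks in replicate 1 (median 47 tags, meaning sequenced fragments counted in the peak, and median width 1016 bp) and 152779 in replicate 2 (20 tags and 697 bp). The study's methods give a minimum number of reads for all samples, the total behind each list is unknown here, and every replicate 1 peak carries a false discovery rate of 100%. The H3K4me3 lists held 47523 and 29335 peaks and give positions only. H3K4me3 peaks lay within 1 kb of the start of 6 of 6 myeloid marker genes in replicate 1 and 5 of 6 in replicate 2 (LYZ had none there).

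The Pol III members make short RNAs that work with proteins. The 7SK RNA (RN7SK) holds the elongation factor P-TEFb inactive, the RN7SL RNAs form the core of the signal recognition particle that brings secreted proteins to the endoplasmic reticulum, RMRP and RPPH1 are the RNA parts of the ribonucleases MRP and P, which cut ribosomal and transfer RNA precursors, and the Y RNAs bind the Ro60 protein. NEAT1 builds nuclear paraspeckles and MALAT1 gathers in nuclear speckles, and both are long, unspliced or little spliced, and among the most abundant RNAs of the nucleus. Pol III genes of the RN7SK type are driven from upstream by a TATA box and a distal element that can hold an octamer, and Pol III ends a transcript at a run of T.

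A DEK peak covered the first base of RN7SK, RMRP, NEAT1 and MALAT1 in replicate 2 alone, and of RN7SL1 and RN7SL2 in both replicates. The start regions of RN7SK, RMRP, NEAT1 and MALAT1 are shown, and those of RN7SL1 and RN7SL2 are not. Each region shown runs from 250 bases before to 50 bases from the gene start, in GRCh37 and on the strand of the gene. Capitals mark the letters TATAA, ATTTGCAT (octamer), AGGAAG (ETS) and CCCCACCC, found on either strand.
RN7SK promoter, chr6:52860169-52860468, plus strand: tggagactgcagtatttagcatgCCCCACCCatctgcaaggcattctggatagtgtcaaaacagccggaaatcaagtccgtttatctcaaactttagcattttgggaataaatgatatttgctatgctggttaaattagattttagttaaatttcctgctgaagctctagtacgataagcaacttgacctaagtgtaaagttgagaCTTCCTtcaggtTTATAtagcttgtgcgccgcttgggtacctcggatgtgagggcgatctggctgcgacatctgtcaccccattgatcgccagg
RMRP promoter, chr9:35657965-35658264, minus strand: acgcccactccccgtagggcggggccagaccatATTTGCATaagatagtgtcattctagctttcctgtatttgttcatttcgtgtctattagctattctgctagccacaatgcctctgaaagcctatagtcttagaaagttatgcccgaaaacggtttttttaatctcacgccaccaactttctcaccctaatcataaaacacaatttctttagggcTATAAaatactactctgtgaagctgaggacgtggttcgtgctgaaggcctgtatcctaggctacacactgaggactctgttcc
NEAT1 promoter, chr11:65189995-65190294, plus strand: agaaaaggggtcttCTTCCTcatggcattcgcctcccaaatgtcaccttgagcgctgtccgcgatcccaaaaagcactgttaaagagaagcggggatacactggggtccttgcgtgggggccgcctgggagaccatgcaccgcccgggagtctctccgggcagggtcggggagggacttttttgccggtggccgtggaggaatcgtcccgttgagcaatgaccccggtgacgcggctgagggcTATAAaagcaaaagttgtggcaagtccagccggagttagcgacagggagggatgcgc
MALAT1 promoter, chr11:65264861-65265160, plus strand: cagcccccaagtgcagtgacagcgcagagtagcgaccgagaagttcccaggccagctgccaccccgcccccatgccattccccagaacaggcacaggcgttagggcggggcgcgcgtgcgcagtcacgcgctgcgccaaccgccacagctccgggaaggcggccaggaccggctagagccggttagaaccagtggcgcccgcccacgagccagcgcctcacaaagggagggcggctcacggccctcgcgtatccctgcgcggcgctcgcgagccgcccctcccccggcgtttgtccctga

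The same letters and 4 other motifs were counted on both strands in the 300-base start regions of 64312 genes. TATAA occurred in 5 of the 9 members and in 30.95% of all start regions. In RN7SK, RMRP, RPPH1 and RNY3 a match began between 33 and 28 bases before the start. That of NEAT1 began 7 bases before the start as annotated here. RefSeq, another annotation, gives NEAT1 a length of 22743 bp against 22767 bp here, and which end differs was not examined. The octamer ATTTGCAT lay in RMRP, RPPH1 and RNY3 and in 2.24% of all regions. TGACGT, a cyclic AMP response element, was found in RN7SL1, RN7SL2 and RPPH1 and in 5.51% of all regions, and in the RN7SL genes a match began 51 and 50 bases before the start. AGGAAG was present in RN7SK, RN7SL1, RPPH1, RNY3 and NEAT1 and in 30.11% of all regions, and CCCCACCC in RN7SK and in 7.6%. None of these letters stood in the start regions of RNY1 and MALAT1, and CACGTG (5.53% of all), GTTCGANNC (1.52%) and ACTACAA (3.62%) occurred in no member. GTTCGANNC stands for the B box of internal Pol III promoters. The regions reach only 50 bases from the start, so a B box further inside a gene would not be found. The GC content of the regions ran from 36% in RNY1 to 71.67% in MALAT1, against a median of 49.33% over all genes. TTTTT followed within 50 bases of the end of 3 of the 7 Pol III genes (RN7SK, RMRP and RPPH1) and of 14.59% of the 8164 genes of 102 to 331 bp, the length range of the Pol III members. TTTT, a length added after the first count was seen, followed 7 of 7 and 29.69%. It began 31 and 39 bases after the end of RN7SK and RNY1, and 2 to 10 bases after that of the others. The end of RPPH1 is approximate, and whether these runs end the transcripts was not tested.

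**Figure D1:**
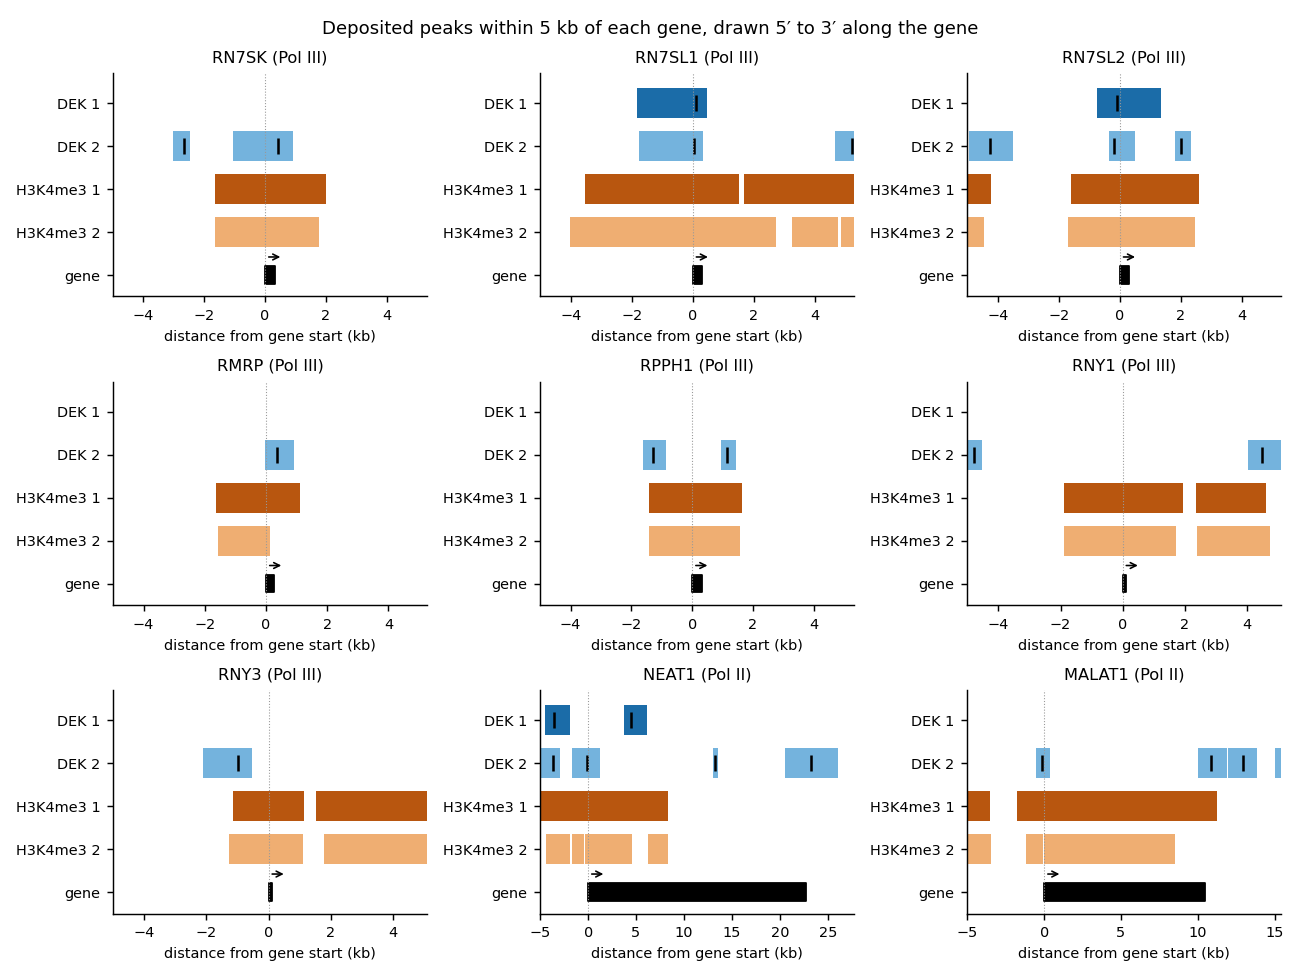
Peaks of the 4 deposited lists in the window of each gene, plotted by distance from the gene start in kb and drawn 5′ to 3′ (black bar, gene; dark and light blue, DEK replicates 1 and 2 with a tick at each summit inside the window; dark and light orange, H3K4me3 replicates 1 and 2). DEK replicate 1 peaks appear at RN7SL1, RN7SL2 and NEAT1, replicate 2 peaks at all 9 genes, and H3K4me3 covers all 9 gene starts.

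DEK peaks of replicate 1 lay in the windows of 3 of the 9 genes, RN7SL1, RN7SL2 and NEAT1, against 16.8% of all genes. Replicate 2 had a peak in 9 of 9 windows, where 67.0% of all genes had one. Intervals shared by both replicates (an overlap of at least 1 bp) were present at the same 3 genes, 2 of 7 Pol III and 1 of 2 Pol II, against 7.14% of all genes. Among the 24229 genes with H3K4me3 of both replicates in the window, the corresponding shares were 33.8% in replicate 1, 89.4% in replicate 2 and 15.4% shared, so the count in replicate 1 was near that of marked genes in general. For genes as short as the Pol III members the shares were 6.59%, 47.8% and 2.22%, and for the 6818 genes of 10434 to 22767 bp, the length range of NEAT1 and MALAT1, 16.7%, 79.3% and 7.36%. Only RN7SL1 kept its shared interval when the replicate 2 list was reduced to its 15017 best-scoring peaks, and no gene kept one at a score of at least 100 in both lists.

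The first base of the gene lay inside a DEK peak at 2 genes in replicate 1 (RN7SL1 and RN7SL2) and at 6 in replicate 2 (these, RN7SK, RMRP, NEAT1 and MALAT1), against 2.64% and 17.1% of all genes. Both replicates covered the start of RN7SL1 and RN7SL2 with a shared interval, which 1.16% of all genes had. Among the 13812 genes whose start lay in H3K4me3 of both replicates, the shares were 9.70%, 43.4% and 4.61%.

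**Figure D2:**
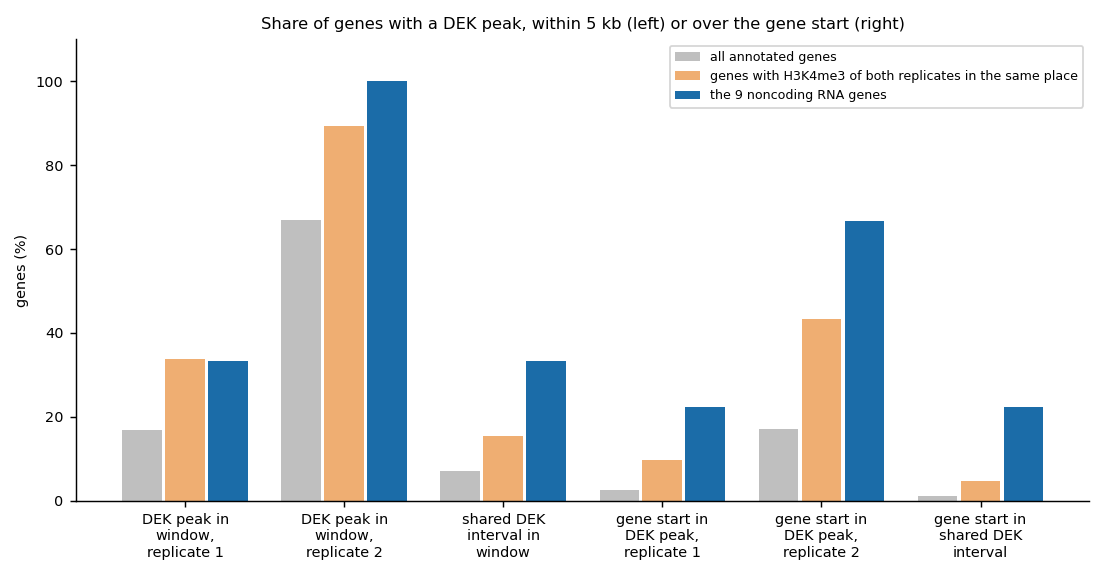
Share of genes in percent with a DEK peak in the window (left groups) or over the gene start (right groups), for all annotated genes (grey), genes with H3K4me3 of both replicates in the same place (orange) and the 9 noncoding RNA genes (blue). The blue bar of replicate 1 in the window, 3 of 9 genes, stands at the level of the H3K4me3-marked genes (33.8%), and the blue bars over the gene start stand for 2, 6 and 2 genes.

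RN7SK (chr6:52860419-52860746, plus strand) had no peak in replicate 1. In replicate 2 a peak of 86 tags (95% exact Poisson interval 68.8 to 106.2) and 1976 bp ran from 1060 bases before to 915 bases after the gene start and held the whole gene. Its score, a p-value of the caller written as 10 times its −log10, was 252.8, above 97.6% of the list. The summit lay 435 bases after the start and so 108 bases past the 3′ end of the gene. The start of GSTA4, a glutathione transferase gene that runs the other way, was 317 bases from that of RN7SK and inside the same peak, so the share of either gene in these tags cannot be told apart. A second peak of 16 tags stood upstream with its summit 2676 bases before the start. The Poisson intervals cover counting error only, and tags can include PCR copies.

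RN7SL1 (chr14:50053298-50053594, plus strand) and RN7SL2 (chr14:50329271-50329567, minus strand) were the Pol III genes with peaks in both replicates. At RN7SL1 replicate 1 counted 170 tags (145.4 to 197.6) over 2289 bp and replicate 2 counted 93 tags (75.1 to 113.9) over 2090 bp. Both summits were in the gene, 100 and 40 bases after its start and 60 bases apart, where the median gap over the 4453 shared intervals of the series was 153 bases (quartiles 50 and 648). Most of each peak lay upstream, over the start of the ribosomal protein gene RPS29, which is 200 bases from the RN7SL1 start, and the signals of these neighbours cannot be told apart. At RN7SL2 replicate 1 counted 173 tags (148.2 to 200.8) over 2119 bp and replicate 2 counted 31 tags (21.1 to 44) over 862 bp. The summits were 110 and 177 bases upstream of the start, and the narrower replicate 2 peak lay wholly within that of replicate 1. The starts of 2 unnamed long noncoding RNAs, 15 and 223 bases away, fell in both peaks.

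The ratio of replicate 1 to replicate 2 tags was 1.83 at RN7SL1 (exact 95% interval 1.41 to 2.38) and 5.58 at RN7SL2 (3.79 to 8.47), where the median over all shared intervals was 1.95 with quartiles of 1.39 and 3.03. These are sums over peaks called separately in each list, and at RN7SL2 the replicate 2 peak was much narrower. Per kb of the covering peak, replicate 1 had 74.3 tags at RN7SL1 (63.5 to 86.3) and 81.6 at RN7SL2 (69.9 to 94.8). Replicate 2 had 44.5 (35.9 to 54.5) and 36.0 (24.4 to 51.1), so the intervals of these genes overlapped in each replicate. Replicate 2 had further peaks in both windows, of 23 tags at the downstream edge of the RN7SL1 window and of 55 and 22 tags upstream and downstream of RN7SL2.

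Reads that fall wholly inside the RN7SL genes can be hard to assign between copies, since RN7SL1 and RN7SL2 differ at 4 of 297 positions. How many read pairs were affected was not tested. Bowtie 2 places a read pair that matches several copies equally well at one of them, so tags inside the gene bodies may have moved between these genes, while the rest of each peak lies in the flanking sequence. Their close relative RN7SL3 (also on chromosome 14) had a replicate 2 peak of 21 tags with its summit in the gene, 97 bases after the start, and none in replicate 1. Outside its own place RN7SL1 had 4 copies in the genome at 90% identity or more over at least 80% of its length, RN7SL2 had 2 and RN7SK had 4. RMRP and RPPH1 had none, RNY1 had 91 and RNY3 had 206.

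RMRP (chr9:35657751-35658014, minus strand) and RPPH1 (chr14:20811241-20811571, minus strand) had peaks in replicate 2 only. The RMRP peak held 28 tags (18.6 to 40.5) over 941 bp, began 19 bases before the gene start and covered the gene. Its summit was 89 bases past the 3′ end, and its score of 75.1 and fold enrichment of 2.78 lay below the list medians of 78.3 and 4.58. The start of CCDC107, 273 bases from that of RMRP on the opposite strand, was outside the peak. At RPPH1 the peaks stood on both sides of the gene and left it free. The downstream one held 18 tags (10.7 to 28.5) at a gap of 625 bases, and the upstream one held 25 tags (16.2 to 36.9) at a gap of 878 bases. PARP2, which encodes a DNA repair enzyme, starts 203 bases from RPPH1 in the opposite direction, and no peak covered its start either. Thus the catalytic RNA of ribonuclease P and its relative in ribonuclease MRP, which share protein subunits, differed in whether a replicate 2 peak covered them.

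RNY1 (chr7:148684228-148684340, minus strand) and RNY3 (chr7:148680847-148680948, plus strand) are close neighbours and shared their strongest peak. This replicate 2 peak held 46 tags (33.7 to 61.4) over 1557 bp, 544 bases upstream of RNY3 and 3925 bases from RNY1, and its score was 101.1. It covered neither gene. RNY1 had another replicate 2 peak of 20 tags, 4514 bases upstream. Replicate 1 had no peak in these windows. The other Y RNA genes of this cluster, RNY4 and RNY5, likewise had replicate 2 peaks only, and 1 of them, of 30 tags, just reached the start of RNY5.

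NEAT1 (chr11:65190245-65213011, plus strand) was the Pol II gene with a shared interval, and that interval lay upstream of the gene. Replicate 1 had a peak of 224 tags (195.6 to 255.3) over 2619 bp that ended 1892 bases before the start. In replicate 2, peaks of 78 tags (61.7 to 97.4) and 67 tags (51.9 to 85.1) overlapped it in 127 and 1408 bp. The summits of the larger overlap were 168 bases apart, with a tag ratio of 3.34 (2.53 to 4.46). A replicate 1 peak inside the gene, of 112 tags (92.2 to 134.8) from 3715 to 6141 bases after the start, had no counterpart in replicate 2. The gene start was covered in replicate 2 alone, by a peak of 120 tags (99.5 to 143.5) with its summit 95 bases upstream of the start. The member peak with the highest score (492.7) and the largest width (5465 bp) lay at the other end of NEAT1 and held 180 tags (154.7 to 208.3). Its summit was 484 bases past the 3′ end.

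MALAT1 (chr11:65265111-65275544, plus strand) had 4 peaks in replicate 2 and none in replicate 1. A peak of 51 tags (38.0 to 67.1) over 926 bp covered the start, with its summit 125 bases upstream. A peak of 105 tags (85.9 to 127.1) over 1912 bp covered the 3′ end, with its summit 403 bases past it. The next peaks downstream held 86 and 49 tags, and none lay between start and end. At 55.1 and 54.9 tags per kb the peaks at the start and at the end were denser than 99.2% and 99.1% of the list.

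Replicate 2 peaks thus stood at both ends of NEAT1 and MALAT1, 2 of 2. This pattern was picked out after the values were seen. Among the genes of their length range, marked by H3K4me3 or not, 11.9% had the gene end in a replicate 2 peak and 4.44% had start and end in 2 separate ones. Both members are marked at the start, and no such share was counted for marked genes of this length. Neither end peak had a counterpart in replicate 1. At the short genes RN7SK and RMRP the same peak held both ends of the gene, so no separate end peak can be told. Its summit lay 108 and 89 bases past the 3′ end, whereas at RN7SL1 it lay in the gene and at RN7SL2 before the start.

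**Figure D3:**
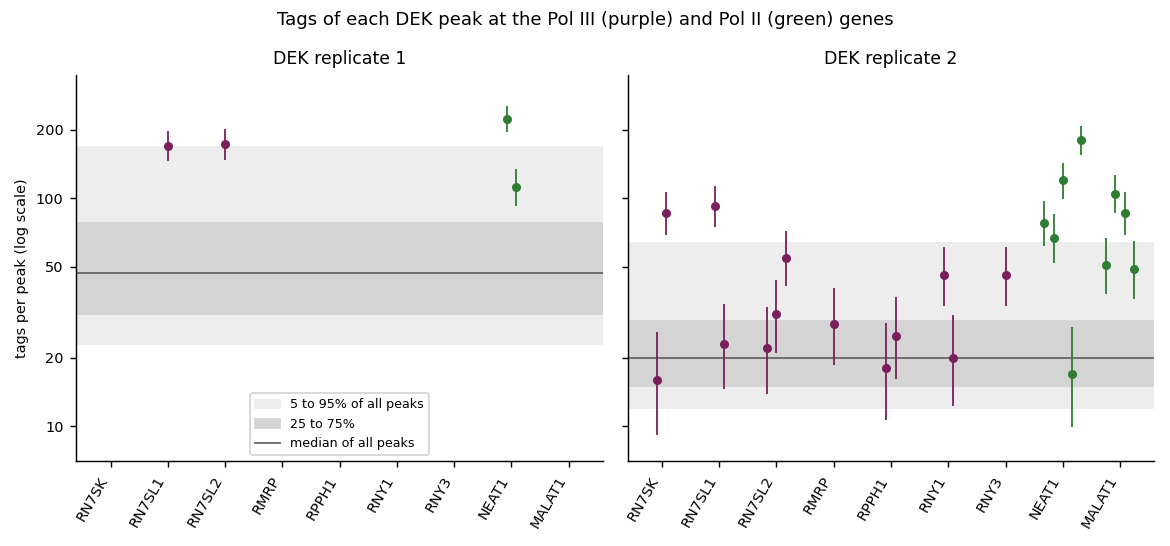
Tags per peak on a log axis for every DEK peak in the windows, with exact 95% Poisson intervals as bars, for Pol III genes (purple) and Pol II genes (green) in each replicate; grey bands hold 25 to 75% and 5 to 95% of all peaks of the list and the line is its median. All 4 peaks of replicate 1 and 18 of 21 of replicate 2 lie above the median, and the highest in replicate 2 are at NEAT1 (180 and 120 tags).

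Beside all peaks of their lists, the peaks at these genes were large but not steeply enriched. Peaks at other genes marked by H3K4me3 were not compared, so this may not be particular to the members. Tags exceeded the list median in 4 of 4 peaks of replicate 1 (112 to 224, against 47) and in 18 of 21 of replicate 2 (16 to 180, against 20), counting the peak shared by the windows of the Y RNA genes once. The median width was 2358 bp in replicate 1 and 1408 bp in replicate 2, against 1016 and 697 bp over the lists. The fold enrichment over the local background of the caller was below the list median in all 4 peaks of replicate 1 (3.09 to 4.95, against 5.57) and above it in only 3 of 21 in replicate 2 (2.64 to 6.25, against 4.58). The 3 were the small peaks beside RN7SL2 (5.26) and RPPH1 (6.25) and the second peak past MALAT1 (5.40). Scores exceeded the median in 4 of 4 and 13 of 21.

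Tag density differed between Pol III and Pol II genes in opposite directions in the replicates, and the values of single genes overlapped in replicate 2. In replicate 1, summed over the peaks of each window, RN7SL1 had 74.3, RN7SL2 81.6 and NEAT1 66.6 tags per kb of peak. In replicate 2 the Pol III values ran from 29.5 at RNY3 and 29.8 at RMRP over 34.5 at RPPH1 to 40.5 at RN7SK and 40.9 at RN7SL1, and NEAT1 and MALAT1 had 36.5 and 45.7. The difference of medians, Pol III over Pol II, was 0.23 on the log2 scale in replicate 1, which rests on 2 Pol III genes and 1 Pol II gene, and -0.25 in replicate 2, with 7 and 2 genes. The replicate 2 values of RNY1 (30) and RNY3 (29.5) both count the peak shared by their windows, so the 7 are not separate. The sign in replicate 1 turned, to -0.13, when each gene was given by its peak with the most tags. In replicate 2 the Pol III median was lower under all 6 settings, from -0.11 with 10 kb on each side to -0.54 with the peak nearest to the start and -1.12 per kb of window (6.53 against 14.2 tags per kb). With so few genes and no spread between cultures, no test was made. The windows of the long genes held more replicate 2 peaks, 5 at NEAT1 and 4 at MALAT1 against 1 to 3 at the Pol III genes. Genes of the same lengths had means of 2.92 and 0.82 peaks, so longer genes held more peaks in general.

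H3K4me3 marked all 9 genes. The first base of 9 of 9 lay in an H3K4me3 peak of both replicates, against 21.4% of all genes. Counting windows gave 9 of 9 against 37.6% of all genes, 13.9% of those as short as the Pol III members and 52.8% of those as long as NEAT1 and MALAT1. Over the Pol III gene bodies the marked stretch was 3631 and 3396 bp in replicates 1 and 2 at RN7SK, 5076 and 5607 bp at RN7SL1, 4210 and 4158 bp at RN7SL2, 2717 and 1695 bp at RMRP, 3079 and 3006 bp at RPPH1, 3847 and 3598 bp at RNY1 and 2268 and 2360 bp at RNY3. All exceeded the list medians of 1480 and 1651 bp. At RN7SK, RN7SL1, RMRP and RPPH1 these stretches also held the starts of GSTA4, RPS29, CCDC107 and PARP2. Those starts are 317, 200, 273 and 203 bases from the member starts. At RN7SL2 they held the starts of unnamed long noncoding RNAs. The share of either neighbour in the mark cannot be told apart at these genes. The replicates differed most at RMRP, where the replicate 2 peak ended 115 bases after the start and replicate 1 ran past the 3′ end.

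The Pol II genes carried some of the broadest H3K4me3 peaks of the series. This was not particular to them, since the RN7SL1 window held peaks of 14126 and 10687 bp, downstream of that gene. At NEAT1 replicate 1 had a single peak of 15194 bp, wider than 99.98% of the list. Replicate 2 had 4 peaks there of up to 4942 bp (wider than 97.9%). At MALAT1 the widest peaks were 11205 bp (wider than 99.93%) and 8522 bp (99.79%). The mark broke at the MALAT1 start, between 22 and 69 bases after it in replicate 1 and between 104 and 10 bases before it in replicate 2, and the DEK peak there, from 550 bases before to 375 bases after the start, spanned both breaks. At the other end of the gene H3K4me3 reached past the 3′ end in replicate 1 and stopped 8511 bases after the start in replicate 2. At NEAT1 it ended 8376 and 8352 bases after the start, so the large DEK peak at the 3′ end stood outside it.

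**Figure D4:**
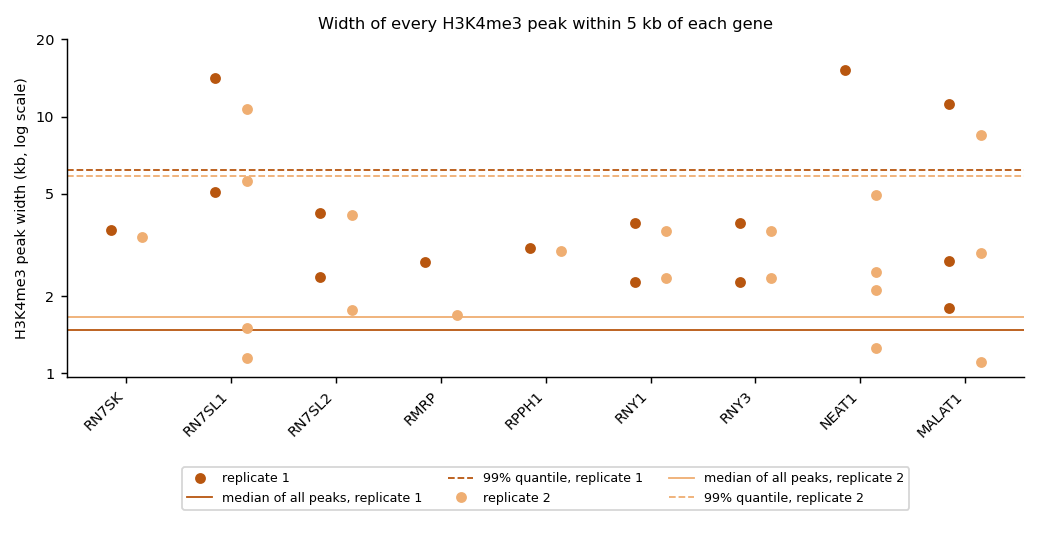
Width in kb, on a log axis, of every H3K4me3 peak in the window of each gene in replicates 1 (dark) and 2 (light), with the median (solid line) and 99% quantile (dashed line) of each list. The single replicate 1 peak at NEAT1 (15194 bp) and the widest MALAT1 peaks (11205 and 8522 bp) lie above the 99% lines, as do the widest peaks in the RN7SL1 window, which lie downstream of that gene and do not cover it.

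DEK peaks at these genes overlapped H3K4me3 of both replicates in 4 of 4 cases in replicate 1, where 32.8% of all DEK peaks did, and in 13 of 21 in replicate 2, where 7.74% did. The split followed the gene class, with 10 of 12 replicate 2 peaks at Pol III genes and 3 of 9 at Pol II genes. The windows differ here, since those of the Pol II genes also held the ends of long genes. Every member start lay in H3K4me3, and the mark covered up to 84.5% of a window (RN7SL1, replicate 1), so overlap was likely beforehand. The shares of 32.8% and 7.74% are over all DEK peaks, not over those near marked genes.

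Other Pol III genes were counted to place the members. Of 31 further genes (5S ribosomal, U6, U6atac, 7SL, Y, vault and BC200 RNAs), 28 had a replicate 2 peak in the window, 1 had a replicate 1 peak and 0 had a shared interval, against 67.0%, 16.8% and 7.14% of all genes and 47.8%, 6.59% and 2.22% of genes as short as the Pol III members. The 5S ribosomal RNA array on chromosome 1 made up 17 of the 31, with all 17 gene starts inside 6 replicate 2 peaks of 159 to 554 tags, no replicate 1 peak and no H3K4me3. The array repeats one unit, so reads there could not be assigned to a gene. Of the 14 others, 11 had a replicate 2 peak, 7 had it over the start and 8 had H3K4me3 of both replicates. Annotated retrocopies of the members, which are mostly silent, had replicate 2 peaks over the gene body in 17 of 292 for RN7SK (5.82%) and 103 of 846 for RN7SL (12.2%), and a shared interval over 3 and 1 of them. These counts are over the body and not the window, so the shares above do not apply to them. A body share over all genes is not given here, so whether these shares are high or low cannot be said. Of the few annotated retrocopies of RNY1, RNY3 and RMRP (8, 10 and 5), a replicate 2 peak overlapped the body of 1, of RMRP.

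Genes that work with the members or resemble them were counted in the same way. Shared intervals lay at 5 of 14 other small RNA genes of Pol II. RNU1-1 had it over its start with 438 and 43 tags, and RNU5F-1, RNU4ATAC and the neighbours RNU4-1 and RNU4-2 had it away from the start. RNU4-1 and RNU4-2 have the same interval (92 and 31 tags). All 5 make RNAs of the spliceosome, as do most genes of that list. Shared intervals also lay at 3 of 16 other long noncoding genes, SNHG5, SNHG6 and CYTOR. Of 25 genes for protein partners of these RNAs, 5 had a shared interval: LARP7, whose protein protects 7SK RNA (95 and 36 tags), SRP9 of the signal recognition particle (65 and 38), POP1 and POP5 of ribonucleases P and MRP (55 and 48, 57 and 36) and SFPQ of paraspeckles (74 and 48). Of 29 genes for Pol III and its factors, 1 had it, BDP1, a subunit of TFIIIB (94 and 34 tags). Replicate 2 peaks lay in 13 of 14, 14 of 16, 24 of 25 and 28 of 29 windows of these lists, against 67.0% of all genes and 89.4% of those marked by H3K4me3, as nearly all genes of these lists were. The shared counts stand beside 7.14% of all genes with a shared interval and 15.4% of those marked by H3K4me3.

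The shared intervals of the series closest to those of the members in both tag counts, over 2 replicates, were at distances of 0.017 to 0.074 on the log2 scale and carry the name of the gene with the nearest start. The interval at RN7SL1 (170 and 93 tags) was nearest to intervals at RAB37 (169 and 95), ARHGAP45 (167 and 89) and PCM1 (179 and 93). That at RN7SL2 (173 and 31 tags) was nearest to intervals named for MSANTD3P1 (171 and 31), RPL21P70 (174 and 32) and AHSA2P (173 and 30). The first NEAT1 interval, the overlap of 127 bp, had 224 and 78 tags. It was nearest to intervals named for CFAP99 (228 and 79), the unnamed long noncoding gene ENSG00000267409 (220 and 77) and MSL2 (225 and 76). Several lay far from the start that names them. Their middles were 28199 bases from it at RPL21P70, 15425 at ENSG00000267409 and 3021 at CFAP99. At RAB37 and MSANTD3P1 they were at -3092 and -3125 (negative, upstream).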

How the data were processed

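Per the labels and the study's methods, the authors mapped paired-end reads on hg19 (Bowtie 2, defaults) and ran MACS 1.4.1 separately on every precipitation. The methods name non-precipitated chromatin as negative control, without saying how it entered the peak calling. The deposited DEK lists hold for each peak a count of tags, not normalized, a score (10 times the −log10 of the p-value), a fold enrichment ratio and a false discovery rate in percent. The deposited H3K4me3 lists hold positions only.

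Lists were used as deposited, with 1-based positions. Windows were the gene and 5 kb on each side, and an overlap of at least 1 bp made a shared interval. Shares were counted over 64449 genes of GENCODE release 44 on GRCh37, and genes of the members' lengths and genes with H3K4me3 of both replicates were counted beside them. RN7SL1 and RPPH1 were placed with blastn 2.17.0 and compared with MAFFT 7.526. Start regions were cut from GRCh37, since the promoter table planned for this is on another build and held 1 of the members. Tag intervals are exact 95% Poisson intervals, and ratio intervals are exact conditional binomial ones. No test across genes was made, because the members were listed by name and each antibody has 2 replicates. The members and gene lists were chosen with earlier results of these data known. All 9 members are named, with the members of the counted lists that had a shared interval and, for likeness, the 3 shared intervals nearest in log2 tags of both replicates. Alternatives were other windows, a score minimum, lists of equal length, a larger overlap, each replicate alone and other measures of tag density. The code used pysam 0.24.0, pandas 2.3.3, SciPy 1.17.1 and Matplotlib 3.10.9 under Python 3.11.15, and 8 of 8 checks on simulated data passed. The methods give a minimum number of reads per sample, and the depth of each sample is unknown here. The samples without antibody were not analysed here. Some sequences and 1 list of marker genes are not reported here.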

Additional observations from a re-analysis of the deposited data

How the results depend on the processing

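Of 56 recomputed values, 37 kept their direction and stayed near the reported value (counts within 1.5 times, density within 0.34 on the log2 scale), 17 moved further and 2 turned sign. The shared interval at a Pol II gene (1 of 2 genes, NEAT1) was absent (0) with the gene body alone, with 1 kb on each side and, an alternative added after the data were seen, with the gene start inside a peak, since it lies more than 1 kb upstream of NEAT1. It was also absent (0) at a score of at least 100 and with replicate 2 reduced to the length of replicate 1, since its peaks scored 85.6 in replicate 1 and 109.6 and 66.0 in replicate 2, where the shortened list began at 153.7. At a score of at least 100 the shared counts were 0 in all and 0 for Pol III. With lists of equal length, replicate 2 peaks remained at 5 of 9 genes (RN7SK, RN7SL1, RN7SL2, NEAT1 and MALAT1) and shared intervals at 1, a Pol III gene, because fewer peaks were kept. When a shared interval had to fill 50% or more of both peaks, 1 Pol III gene was left. Counted in 1 replicate alone, the shared count ranged from 3 to 9 in all, from 2 to 7 for Pol III and from 1 to 2 for Pol II. The log2 difference of tag density in replicate 1 was -0.13 with the peak of most tags, -0.13 with the peak nearest to the start, 0.70 per kb of window and 0.76 with 1 kb on each side, and in replicate 2 it was -1.12 per kb of window. The cause of these shifts was not tested. H3K4me3 counts were 9 of 9 under every alternative run, and a score minimum for H3K4me3 was not run because its lists hold no scores. No paired analysis was possible because no test was made and each list is a separate set of peaks. A gene without a replicate 1 peak may have had too few reads there for the caller, but the depth is unknown here and this was not tested.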
